A study of Mus musculus with 8 samples.

Results

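Lipa, Npc1, Npc2, Soat1, Nceh1, Ch25h and Cyp27a1 encode proteins that release cholesterol inside the cell, store it as ester, free it again or turn it into oxysterols. The 7 genes were chosen by name from the gene names of the deposited table, which has 25766 entries. All 7 were found under 1 identifier each, and all 7 were among the 14907 entries that passed the filter on low counts. RNA was sequenced from 8 tumors, grown under the skin of female C57BL/6J hosts after injection of MC38-OVA cells. MC38 is a colon adenocarcinoma line of the same strain, and OVA stands for ovalbumin, used in such lines as a model antigen. The genotype is shNT in 4 tumors, the control group, and shXBP1, a hairpin against Xbp1, in the other 4. The hairpin is carried by the injected cells, while the host cells within the tumor carry none. The labels name no agent, no day of collection and no age, and do not say how many clones the hairpin lines hold. The series asks whether XBP1, a factor that switches on genes when unfolded proteins build up, acts in cancer cells through cholesterol on the myeloid cells around them.

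Total counts ranged from 29070605 to 36012997 per tumor. Xbp1 itself lay between 96.0 and 109 CPM (counts scaled to library size and composition) in shNT tumors and between 56.6 and 77.2 CPM in shXBP1 tumors, a log2 fold change of -0.51 (edgeR quasi-likelihood test, adjusted p = 0.00255). Of 8 markers of colon epithelial cells, Krt8, Krt18, Krt20, Vil1 and Cdx2 were below the filter, and Cdx2 had 0 counts in all 8 tumors, where a 0 allows up to 3 counts. Their summed level was 5.74 to 7.97 CPM in shNT and 7.65 to 11.2 CPM in shXBP1 tumors. Most of that sum was Cdh1, 1 of the 3 that were tested, with an edgeR adjusted p of 0.0597 (0.0369 by DESeq2). Of 15 macrophage and monocyte markers 13 rose, and their sum was 899.6 to 1269 CPM in shNT and 1560.3 to 2925 CPM in shXBP1 tumors. The most abundant, the complement genes C1qa and C1qb, went from 232 and 239 CPM on average to 487 and 472 CPM. The other lists, of immune, fibroblast and endothelial markers, moved the same way, with 9 of 9 T and NK cell markers, 5 of 6 tested dendritic cell markers, 6 of 9 fibroblast markers, 3 of 5 tested neutrophil markers, 3 of 6 endothelial markers and 2 of 3 tested B cell markers higher. Across all genes tested 16.9% were called higher. Whether the RNA of these markers came from host cells or from the injected cells was not tested. For T and NK cells the sum spanned 59.7 to 112.5 CPM in shNT and 253 to 437 CPM in shXBP1 tumors, for fibroblasts 1909 to 3210 and 6132 to 8254 CPM, and for dendritic cells 12.3 to 16.1 and 21.7 to 29.7 CPM. Over the 8 tumors most counts of the fibroblast list were Col3a1, and the median log2 fold change of that list was 0.75. For neutrophils, endothelial and B cells the shNT tumors spanned 21.5 to 28.9, 43.4 to 52.3 and 2.08 to 2.90 CPM, and the shXBP1 tumors 43.8 to 65.4, 88.2 to 101 and 4.29 to 6.69 CPM. The remaining list, of adipocyte and hepatocyte markers, had 1 tested gene, Plin1, which did not pass but was called lower by voom (adjusted p = 0.0185) and without shXBP1 tumor 4 (edgeR adjusted p = 0.0053), and the list summed to at most 1.85 CPM. Each library holds RNA of tumor and host cells, so a change in the share of a cell type and a change in the RNA per cell cannot be told apart.

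Cholesterol that enters a cell in lipoprotein reaches the lysosome as ester. Acid lipase, the product of Lipa, frees it there, and NPC2, a soluble carrier, hands it to NPC1, a membrane protein through which it leaves the lysosome. In the endoplasmic reticulum SOAT1 joins free cholesterol to a fatty acid for storage in droplets, and NCEH1 is a hydrolase that splits such esters again, known above all from macrophages. CH25H and CYP27A1 make 25-hydroxycholesterol and 27-hydroxycholesterol, oxysterols that activate liver X receptors, and 25-hydroxycholesterol also holds back SREBP2, the factor that drives cholesterol synthesis. Ch25h is known as a gene that interferon induces in myeloid cells.

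The sequences before the starts of these genes were read from RefSeq (build GRCm38.p6), which gave a window for 6 of the 7 genes, all but Npc1. The 250 bases before each RefSeq start were searched on both strands for 7 short motifs. Printed are 4 stretches that hold matches, in capitals, while the match of Cyp27a1 is not printed. The capitals mark CACGTG, an E-box, or GAGGAA, bound by the myeloid factor PU.1, or GGGCGG, a GC box, or TGACG, part of the cyclic AMP response element, on either strand.
Nceh1, chr3:27182904-27182983, plus strand, 100 to 21 bases before the RefSeq start: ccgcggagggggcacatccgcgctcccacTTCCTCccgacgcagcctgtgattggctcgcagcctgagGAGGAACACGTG
Ch25h, chr19:34475165-34475248, minus strand, 100 to 17 bases before the RefSeq start: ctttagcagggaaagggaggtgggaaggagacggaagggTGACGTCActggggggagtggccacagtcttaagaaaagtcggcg
Lipa, chr19:34527645-34527724, minus strand, 250 to 171 bases before the RefSeq start: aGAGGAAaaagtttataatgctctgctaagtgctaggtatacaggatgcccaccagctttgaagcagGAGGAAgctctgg
Npc2, chr12:84773193-84773292, minus strand, 180 to 81 bases before the RefSeq start: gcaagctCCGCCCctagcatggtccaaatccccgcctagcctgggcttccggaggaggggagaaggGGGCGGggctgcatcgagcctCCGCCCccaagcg
RefSeq's start lies downstream of the GENCODE start used for the gene positions below, by 39 bases in Nceh1, 40 in Npc2 and 16 in Ch25h, and at the same base in Lipa. The last 19 bases shown for Nceh1, with a GAGGAA and the E-box, therefore lie inside the GENCODE gene model. Nceh1 alone held the E-box, which 6.02% of all 32817 windows of the same length hold, and it lay next to a GAGGAA, a motif found in 23.3% of windows. The other gene with GAGGAA was Lipa. In Ch25h TGACG stood on both strands with an overlap, an arrangement found in 1.55% of windows and looked for after the match was seen, while TGACG alone is in 17.7%. Npc2 held 3 GC boxes and Cyp27a1 held 1, against 32.7% of windows with any. None of the 6 windows held GACGTG, the core of the XBP1 element (5.20% of windows), the interferon element GAAANNGAAA (2.97%) or the STAT site TTCNNNGAA (7.01%), and Soat1 held none of the 7 motifs. Such matches are letters in a window, and the data do not show that a factor binds there.

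All 7 genes rose in shXBP1 tumors, between 1.22-fold and 1.73-fold, and none rose as much as 2-fold. Across all genes tested 30% were called (edgeR quasi-likelihood test, adjusted p below 0.05 over all genes), 16.9% higher and 13.1% lower. Of the 7 genes 4 (Lipa, Npc1, Ch25h and Cyp27a1) rose at least 1.5-fold, as did 11.7% of all genes. The median log2 fold change of the 7 was 0.59, and that of all genes was -0.01. Lipa, Npc1, Soat1 and Cyp27a1 were higher in every shXBP1 tumor than in any shNT tumor, as were 16.6% of all genes (30.2% had groups apart in either direction), while in Npc2, Nceh1 and Ch25h the groups overlapped. Without shNT tumor 2 only Lipa, Npc1 and Nceh1 were called, 3 of the 7, and without any other tumor 5 to 7 were. The authors' deposited table has the same sign for all 7, with log2 fold changes from 0.29 for Soat1 to 0.72 for Cyp27a1.

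**Figure D1:**
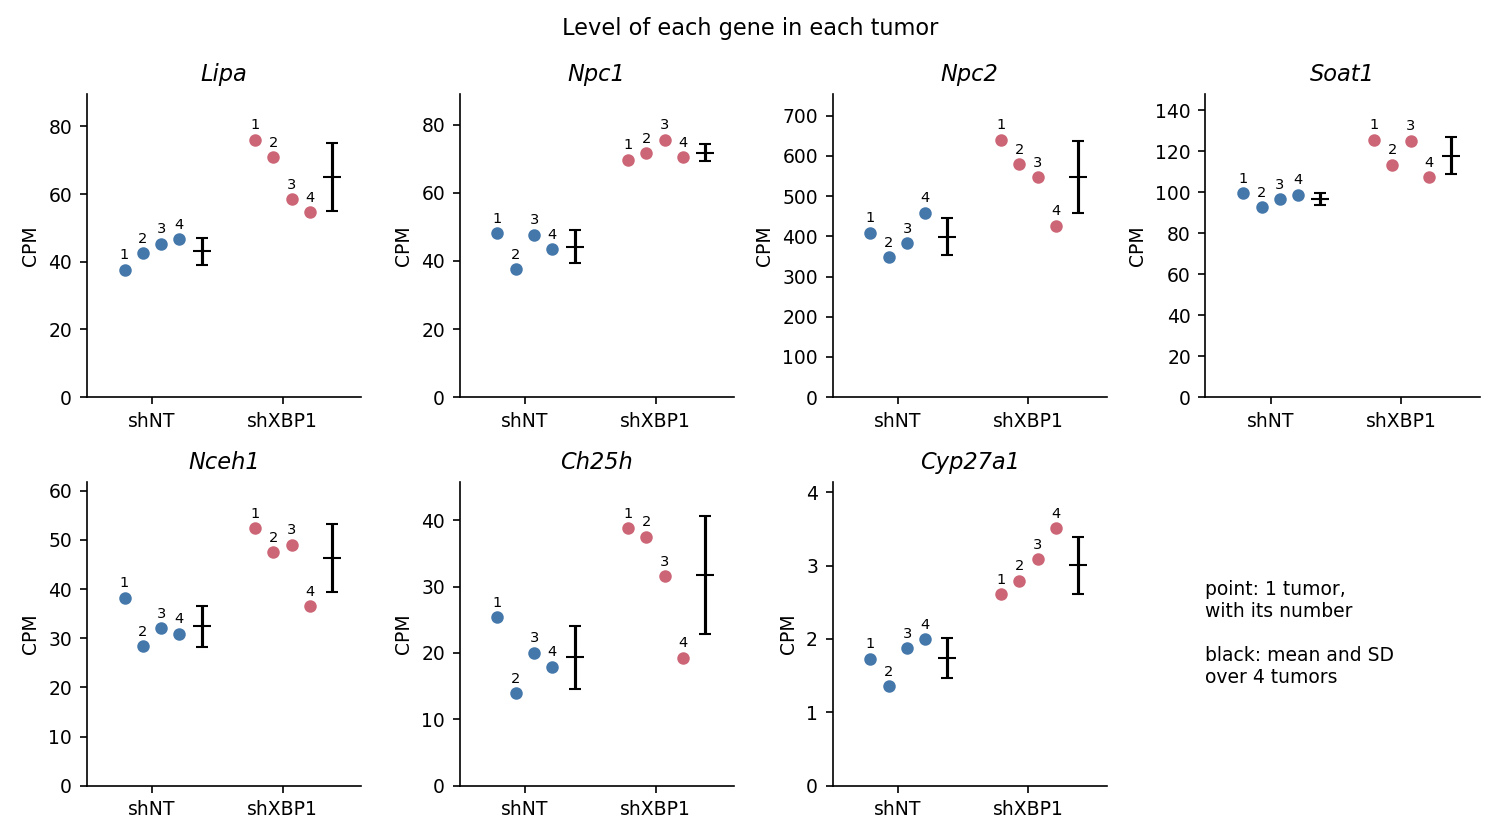
Level of each of the 7 genes in CPM (vertical axis, from 0) in 4 shNT and 4 shXBP1 tumors, 1 point per tumor with its number, beside the mean and SD in black. Lipa, Npc1, Soat1 and Cyp27a1 show groups that do not overlap, and shXBP1 tumor 4 falls among the shNT tumors for Npc2, Nceh1 and Ch25h.

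In the lysosome, Lipa and Npc1 rose with no overlap between groups, and Npc2 rose with overlap. Levels below are given for tumors 1 to 4 of each group in turn. Lipa (ENSMUSG00000024781, chromosome 19, 34492318 to 34527474, minus strand, in GENCODE M21 on GRCm38) was at 37.7, 42.6, 45.3 and 46.6 CPM across the shNT tumors and at 76.0, 70.8, 58.5 and 54.6 CPM across the shXBP1 tumors. The lowest shXBP1 value still lay above the highest shNT value, and shXBP1 tumors 1 and 2 stood above tumors 3 and 4. The means were 43.0 ± 3.96 and 65.0 ± 10.1 CPM (SD, n = 4 each), a 1.51-fold rise (log2 fold change 0.59, SE 0.11, edgeR adjusted p = 0.00214). Npc2 (ENSMUSG00000021242, chromosome 12, 84754562 to 84773152, minus strand) was at 409, 348, 382 and 459 CPM in shNT tumors and at 640.1, 579, 547 and 427 CPM in shXBP1 tumors. Only shXBP1 tumor 4 lay within the range of the shNT tumors, below shNT tumor 4. The rise was 1.37-fold (399.5 ± 46.9 and 548 ± 89.8 CPM, SD, n = 4 each, log2 fold change 0.46, SE 0.12, edgeR adjusted p = 0.0152), and the call was lost without shNT tumor 2 (edgeR adjusted p = 0.0541) or shXBP1 tumor 1 (0.0533).

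Npc1 (ENSMUSG00000024413, chromosome 18, 12189692 to 12236400, minus strand) had the smallest adjusted p of the 7. It stood at 48.2, 37.5, 47.7 and 43.5 CPM in the shNT group, and at 69.7, 71.6, 75.6 and 70.4 CPM in the shXBP1 group. The 4 shXBP1 tumors lay close together, with a coefficient of variation of 3.63% against 11.2% in shNT. The rise was 1.62-fold (44.2 ± 4.96 and 71.8 ± 2.61 CPM, SD, n = 4 each, log2 fold change 0.70, SE 0.09, edgeR adjusted p = 0.000192). Leaving out any 1 tumor kept the log2 fold change between 0.63 and 0.75, with the largest adjusted p at 0.00115. Npc1 shares 967 bases at its end with Rmc1 on the other strand, and since the strand setting of the counting is not known, reads there could have been counted for either gene. Gm15956, also on the other strand, overlaps Npc1 by 4908 bases, and Gm37648 overlaps Soat1 likewise by 2563 bases. Gm37191, a processed pseudogene, lies within Nceh1 on the same strand (388 bases).

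On the side of storage, Soat1 and Nceh1 rose too, Soat1 by the smallest fold of the 7. Soat1 (ENSMUSG00000026600, chromosome 1, 156424525 to 156474331, minus strand) was at 99.4, 92.8, 96.5 and 98.7 CPM in shNT tumors and at 126, 113, 125 and 107 CPM in shXBP1 tumors. The shNT tumors hardly differed, with a coefficient of variation of 3.08%, and all shXBP1 tumors lay above them. The rise was 1.22-fold (96.9 ± 2.98 and 118 ± 8.99 CPM, SD, n = 4 each, log2 fold change 0.28, SE 0.08, edgeR adjusted p = 0.0149). Without shNT tumor 2 (edgeR adjusted p = 0.0523) or shXBP1 tumor 3 (0.0536) it was not called. Nceh1 (ENSMUSG00000027698, chromosome 3, 27182965 to 27284608, plus strand) was at 38.3, 28.4, 31.99 and 30.9 CPM in shNT tumors and at 52.4, 47.5, 49.0 and 36.5 CPM in shXBP1 tumors. Here shNT tumor 1 and shXBP1 tumor 4 crossed, and the other 6 tumors kept to their side. The rise was 1.43-fold (32.4 ± 4.19 and 46.3 ± 6.86 CPM, SD, n = 4 each, log2 fold change 0.52, SE 0.12, edgeR adjusted p = 0.00757) and stayed called whichever tumor was left out.

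The 2 oxysterol enzymes had the largest fold changes of the 7 and also the largest errors. Ch25h (ENSMUSG00000050370, chromosome 19, 34473778 to 34475164, minus strand) was at 25.4, 14.0, 20.03 and 17.9 CPM in shNT tumors and at 38.8, 37.5, 31.6 and 19.3 CPM in shXBP1 tumors. Again shXBP1 tumor 4 lay among the shNT tumors, below shNT tumors 1 and 3. The rise was 1.64-fold (19.3 ± 4.78 and 31.8 ± 8.91 CPM, SD, n = 4 each, log2 fold change 0.72, SE 0.24, edgeR adjusted p = 0.0467). Leaving out shNT tumor 2 (edgeR adjusted p = 0.0984), 3 (0.0813) or 4 (0.104) ended the call, as did leaving out shXBP1 tumor 1 (0.112), 2 (0.124) or 3 (0.0864), and testing with no filter on low counts (0.0910). Without shXBP1 tumor 4 the log2 fold change was 0.90 (edgeR adjusted p = 0.00148). Cyp27a1 (ENSMUSG00000026170, chromosome 1, 74713574 to 74737892, plus strand), a mitochondrial enzyme, was at 1.73, 1.36, 1.87 and 1.996 CPM in shNT tumors and at 2.61, 2.80, 3.09 and 3.51 CPM in shXBP1 tumors. These levels rest on 43 to 131 counts per tumor, and the groups did not overlap. The rise was 1.73-fold (1.74 ± 0.277 and 3.002 ± 0.391 CPM, SD, n = 4 each, log2 fold change 0.79, SE 0.22, edgeR adjusted p = 0.0183), and the call was lost without shNT tumor 2 (edgeR adjusted p = 0.0515). Ch25h and Lipa are neighbours, on the same strand with 17153 bases and no whole annotated gene between them. The start of Ch25h is overlapped by Gm26902, a noncoding RNA of the other strand.

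The order of the 7 genes was read from the authors' FPKM, which scales counts by gene length and library size. Npc2 was highest in every tumor, at 107 FPKM on average in shNT and 146 FPKM in shXBP1 tumors, and Cyp27a1 was lowest, at 0.800 and 1.40 FPKM. Between them in shNT tumors stood Lipa (12.8 FPKM), Ch25h (12.6), Soat1 (10.3), Npc1 (7.46) and Nceh1 (6.37). The ranges of Lipa and Ch25h overlapped there, as did those of Ch25h and Soat1 and those of Npc1 and Nceh1. In shXBP1 tumors Ch25h (20.6 FPKM) and Lipa (19.3) overlapped, as did Soat1 (12.6) and Npc1 (12.2), while Npc1 lay above Nceh1 (9.11) with no overlap. Soat1 exceeded Npc1 in 4 of 4 shNT tumors and in 2 of 4 shXBP1 tumors.

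**Figure D2:**
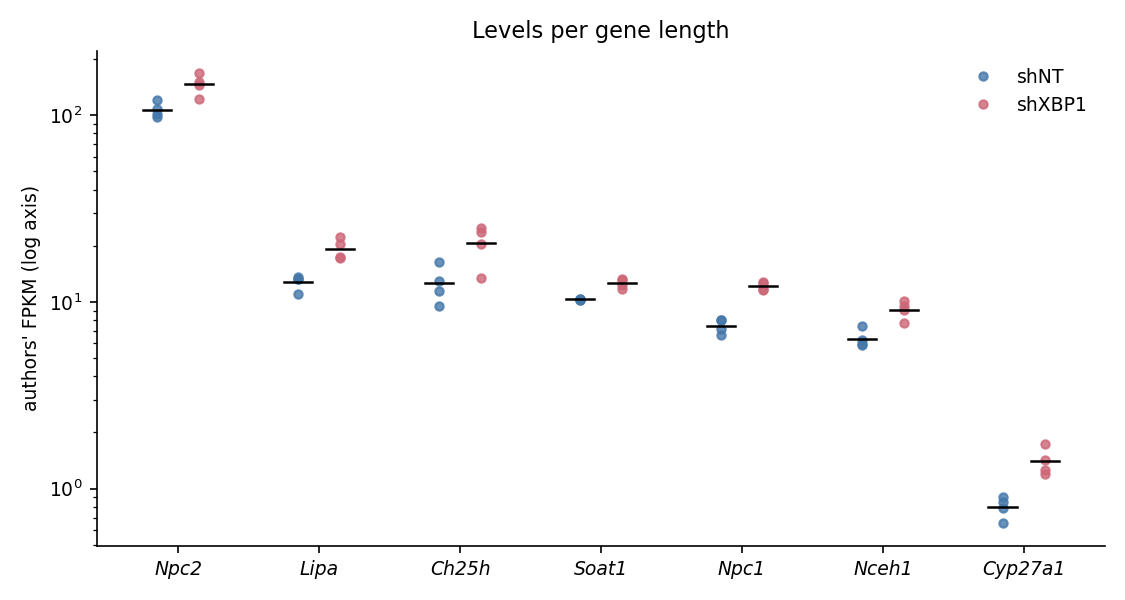
The authors' FPKM of the 7 genes (vertical log axis) in each shNT (blue) and shXBP1 (red) tumor, with the group mean as a black line, ordered by the shNT mean. Npc2 stands far above the other 6 genes and Cyp27a1 far below them in both groups.

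Whether steps of the pathway shifted against each other was asked with 4 log2 ratios, each tested with an exact permutation test over the 8 tumors, whose smallest possible two-sided p is 0.0286. None passed after Benjamini-Hochberg adjustment over the 4. With that smallest p, a ratio could pass only if most of the 4 reached it together. The tests therefore cannot decide whether a single ratio shifted. The log2 ratio of Soat1 to Nceh1, ester formation against ester hydrolysis, differed by -0.23, shXBP1 minus shNT (exact p = 0.0571, adjusted p = 0.229). This log2 ratio was 1.38, 1.71, 1.59 and 1.67 in shNT tumors and 1.26, 1.25, 1.35 and 1.55 in shXBP1 tumors. In 3 shXBP1 tumors it lay below every shNT tumor, and in tumor 4 it lay among them. The other differences were -0.12 for Lipa to Npc1 (exact p = 0.543, adjusted p = 0.724), -0.26 for Npc2 to Npc1 (exact p = 0.171, adjusted p = 0.343) and -0.07 for Ch25h to Cyp27a1 (exact p = 0.857, adjusted p = 0.857). The last ratio had an SD of 0.30 in shNT and 0.64 in shXBP1 tumors (n = 4 each), so a shift of that size could not have been seen.

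The 7 genes did not follow a common order within the groups. In shXBP1 tumor 4, 5 of the 7 (Lipa, Npc2, Soat1, Nceh1 and Ch25h) were at the lowest of their group while Cyp27a1 was at the highest, and shNT tumor 2 was lowest for all but Lipa. These 2 tumors also had the lowest macrophage marker sums of their groups, 1560.3 CPM in shXBP1 tumor 4 against 2501 to 2925 CPM in the other 3, and 899.6 CPM in shNT tumor 2 against 1186 to 1269 CPM. The T and NK marker sums were lowest there too (253 CPM in shXBP1 tumor 4 and 59.7 CPM in shNT tumor 2). So were the dendritic cell marker sums (21.7 and 12.3 CPM). No other marker sum was lowest in both. At the upper end the 2 groups differed. In shXBP1 tumor 1, 5 of the 7 were at the highest of their group, but its macrophage marker sum (2501 CPM) was below those of tumors 2 and 3 (2925 and 2751 CPM). In shNT tumor 1, 4 of the 7 were at the highest, and its macrophage marker sum (1269 CPM) was the highest of its group. Ptprc, the pan-leukocyte antigen CD45, was at 94.8 CPM in shXBP1 tumor 4 and at 156 to 193 CPM in the other 3. In shNT tumor 2 Ptprc was at 42.6 CPM, also the lowest of its group. Neutrophil markers summed to 65.4 CPM in shXBP1 tumor 4, the highest of all 8. Summed fibroblast markers were lowest of the shXBP1 group in the same tumor, at 6132 CPM. Over all 8 tumors Mmp9 and Csf3r held most counts of the neutrophil list, while Ly6g and Retnlg were below the filter.

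**Figure D3:**
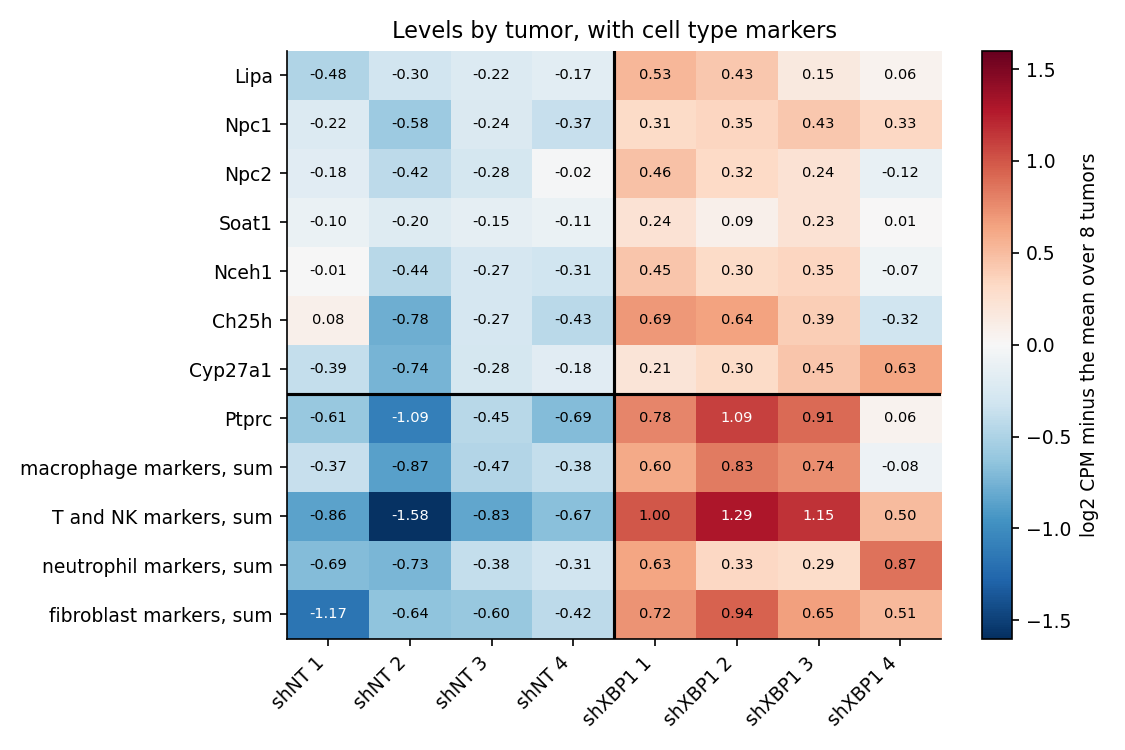
Each cell gives log2 CPM minus its mean over the 8 tumors, for the 7 genes (above the line), Ptprc and the summed CPM of 4 marker lists (below it), with shNT tumors on the left. Ch25h in shXBP1 tumor 4 is at -0.32, on the shNT side, as is the macrophage marker sum at -0.08, while Cyp27a1 there is at 0.63.

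With the log2 CPM of Ptprc in the model, none of the 7 was called, where 0.899% of all genes were called higher, and the SE of the 7 was 1.32 to 2.37 times as large. At an unadjusted p under 0.05 Npc1 was then higher (log2 fold change 0.44, SE 0.19, edgeR adjusted p = 0.266) and Ch25h was lower (-0.69, SE 0.31, edgeR adjusted p = 0.295). Npc2 (-0.15) and Nceh1 (-0.10) also changed sign, while Cyp27a1 (0.89), Lipa (0.23) and Soat1 (0.08) did not. With the mean of the macrophage markers in its place none was called either, against 0.309% of genes called higher, none of the 7 had an unadjusted p under 0.05, the SE was 1.85 to 2.54 times as large, and the signs were those found with Ptprc. Both covariates differ between the groups, which leaves little within-group spread to estimate from with 4 tumors each.

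**Figure D4:**
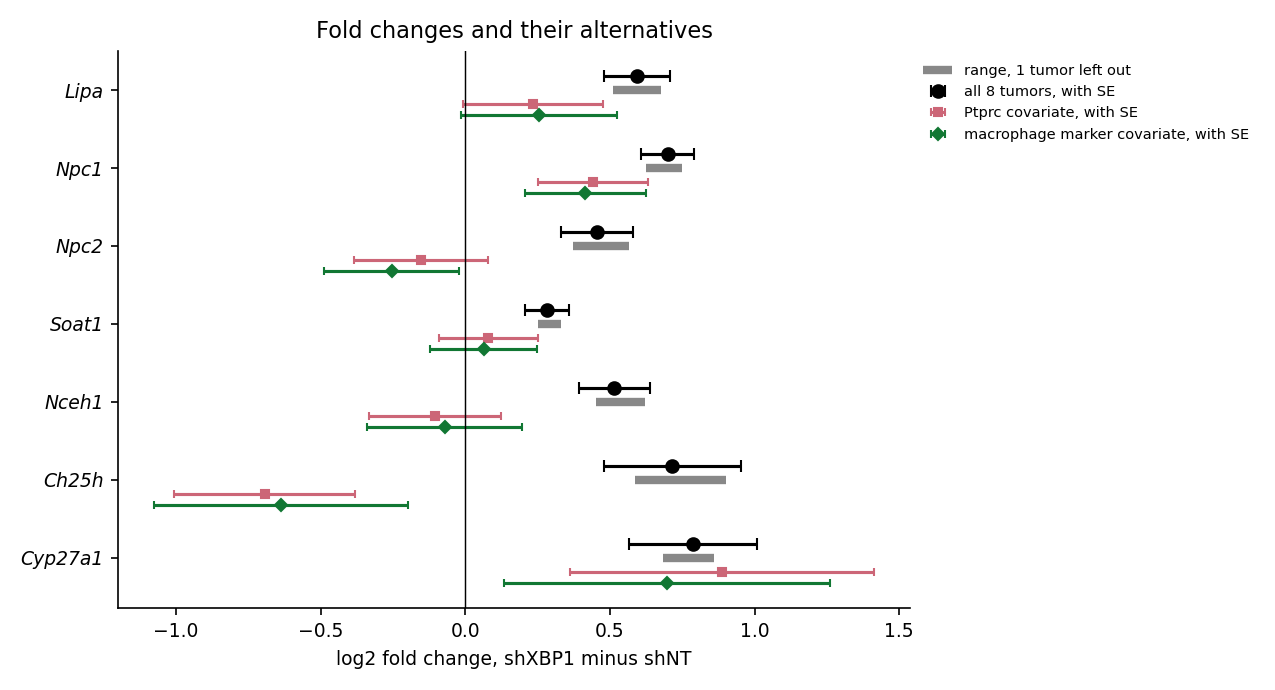
Log2 fold change (shXBP1 minus shNT, horizontal axis) of the 7 genes in all 8 tumors with its SE (black), the range when 1 tumor is left out (grey bar), and the values with Ptprc or the macrophage markers as a covariate (red and green, with SE). The grey bars all lie above 0, and the covariate values of Npc2, Nceh1 and Ch25h lie below it.

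The genes nearest to each of the 7 in their profile were found by the root mean square difference of log2 CPM over the 8 tumors, after centring each gene, among 10641 genes of at least 5 CPM on average. Lipa lay nearest to Rps6ka1, Sp140 and H2-T10 (0.0597, 0.0702 and 0.0724 log2 units) and Npc1 to Stab1, Renbp and Dgka (0.0794, 0.0825 and 0.0891). Npc2 lay nearest to Lysmd2, Cybc1 and Usp35 (0.0637, 0.0680 and 0.0770), Soat1 to Rab43, Akirin1 and Rab23 (0.0386, 0.0436 and 0.0443), and Nceh1 to B3gnt2, Saysd1 and Styk1 (0.0647, 0.0849 and 0.0872). Less close were the nearest of Ch25h, which were Vamp8, Slc2a6 and Tgtp2 (0.118, 0.132 and 0.146), and of Cyp27a1, which were Il1r1, Plpp3 and Bcl3 (0.109, 0.129 and 0.140). Ch25h and Cyp27a1 also lay farther from genes in general. Their median distances to all genes compared were 0.541 and 0.473, against 0.249 (Soat1) to 0.421 (Npc1) for the others. Among the 7 themselves the closest pair was Npc2 and Nceh1 (0.129) and the farthest was Ch25h and Cyp27a1 (0.434). Lipa and Ch25h, neighbours on the chromosome, were 0.330 apart. With 8 tumors and so many genes some near profiles are found for any gene, so these values are a description.

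Of the other proteins that carry sterol between membranes, most did not pass. Of 23 tested transfer genes 2 rose, 3 fell and 18 did not pass, with a median log2 fold change of 0.07 (Npc1l1 was below the filter). For this list and those that follow, the shares over all genes were 16.9% higher and 13.1% lower. Gramd1b, which moves cholesterol from the plasma membrane to the endoplasmic reticulum, rose 1.52-fold (16.2 ± 1.93 and 24.6 ± 2.25 CPM, SD, n = 4 each), and Osbpl8, an oxysterol-binding protein homologue, rose 1.42-fold. Stard4, a soluble sterol carrier, was 2.53-fold lower (125 ± 8.26 and 49.5 ± 7.43 CPM, SD, n = 4 each), and Tmem97, a protein that binds NPC1, was 1.52-fold lower. Osbp, the oxysterol-binding protein (named after its value was seen), fell by 0.27 on the log2 scale (edgeR adjusted p = 0.0351), a call that was lost in 6 of the fits that left out a tumor (adjusted p up to 0.126 without shNT tumor 3) and held without shNT tumor 1 and without shXBP1 tumor 4. It was also lost with scaling by library totals alone (edgeR adjusted p = 0.0707) and with the filter of 10 CPM in 4 tumors (0.0700). The number of these genes that rose was 4 without shNT tumor 4 and 5 without shXBP1 tumor 4, and also 5 by DESeq2.

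Of the other ester enzymes 7 of 13 were tested (Aadac, Ces1d, Ces1f, Ces1g, Ces2g and Cel were below the filter), and 2 rose and 0 fell (1 lower at an unadjusted p under 0.05, and 1 by DESeq2). Dgat1, a transferase that makes triglyceride, was at 18.6 ± 1.82 and 24.9 ± 3.55 CPM, and Lipe, hormone-sensitive lipase, at 7.80 ± 1.32 and 10.7 ± 0.644 CPM (SD, n = 4 each). The call of Dgat1 (log2 fold change 0.42, edgeR adjusted p = 0.0179) ended on removal of shNT tumor 2 (0.0527), shNT tumor 3 (0.0551) or shXBP1 tumor 1 (0.0601). That of Lipe (log2 fold change 0.46, edgeR adjusted p = 0.0344) ended on removal of shNT tumor 1 (0.0812), 2 (0.0565) or 4 (0.0638), or of shXBP1 tumor 1 (0.0880) or 3 (0.0771). Soat2, the second sterol acyltransferase, was at 4.61 ± 1.71 and 2.64 ± 0.699 CPM (SD, n = 4 each) and did not pass (log2 fold change -0.80, SE 0.30, edgeR adjusted p = 0.0632). It was called lower without shNT tumor 4 (0.00949), without shXBP1 tumor 4 (0.0258) and by DESeq2 (0.0358). Lcat, the acyltransferase of plasma lipoproteins, had an adjusted p of 0.331.

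Other genes that make, change or sense oxysterols moved both ways, with 5 of 12 tested that rose, 1 that fell and 6 not called, with a median of 0.01, while Cyp7a1 and Cyp8b1 were below the filter. Hsd11b1, a reductase of steroids that also acts on 7-ketocholesterol, was 4.28-fold higher (mean 1.61 ± 0.330 against 6.91 ± 1.16 CPM, SD, n = 4 each, edgeR adjusted p = 4.19e-05). Gpr183, the receptor on immune cells for an oxysterol made from the product of Ch25h, was 2.79-fold higher (mean 1.602 ± 0.605 against 4.48 ± 0.948 CPM, SD, n = 4 each, edgeR adjusted p = 0.00177). Hsd3b7, which acts further down that route and in bile acid synthesis, was 1.36-fold higher. Cyp46a1 and Cyp11a1, P450 enzymes of cholesterol hydroxylation and side-chain cleavage (named after their values were seen), were higher too, Cyp46a1 at 0.922 ± 0.212 and 2.06 ± 0.365 CPM and Cyp11a1 on 9 counts in all shNT and 92 in all shXBP1 tumors. Smo, a Hedgehog pathway protein that binds sterols, was 1.39-fold lower (104 ± 7.76 and 74.4 ± 8.58 CPM, SD, n = 4 each, edgeR adjusted p = 0.0027).

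Lysosome genes, from the compartment of Lipa, Npc1 and Npc2, rose in 18 of 24 cases, with 0 that fell (0 lower at an unadjusted p under 0.05, and 0 by DESeq2) and 6 not called, with a median of 0.46. The proteases Ctsb and Ctsd were 1.95-fold and 1.71-fold higher. Psap, the precursor of sphingolipid activator proteins, was 1.71-fold higher. The log2 fold changes of Lipa (0.59), Npc1 (0.70) and Npc2 (0.46) lay within the range of these genes, whose highest was Ctsb at 0.96.

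The type I interferon list, fixed because interferon induces Ch25h, rose in 11 of 20 genes, with 0 that fell (0 lower at an unadjusted p under 0.05, and 0 by DESeq2) and 9 not called, with a median of 0.75. Xaf1 was 2.17-fold, Oas3 1.78-fold, Stat2 1.80-fold and Oas2 2.91-fold higher, and without shXBP1 tumor 4 the number that rose was 18. The summed level of the list was 1592 CPM in that tumor, the lowest of its group. Ch25h was also lowest there, but so were Lipa, Npc2, Soat1 and Nceh1. The summed lysosome, macrophage and T and NK cell lists were lowest there as well. Whether interferon bears on Ch25h in these tumors was not tested. All 17 SREBP2 targets, which include Stard4, fell, with a median of -1.56, and Fdft1, squalene synthase, was 2.95-fold, Cyp51, lanosterol demethylase, 3.48-fold and Sc5d, a sterol desaturase, 2.30-fold lower. The smallest of these changes, -0.52 for Dhcr7 (named after its value was seen), was of about the size of the median rise of the 7 genes, and the other 16 were larger. With Ptprc in the model 0 of the 24 lysosome and 0 of the 20 interferon genes were called higher (5 and 0 at an unadjusted p under 0.05), and 5 SREBP2 targets were called lower. Of all 14907 genes that fit called 134 (0.899%) higher and 106 lower. At so low a share 0 calls do not set the lysosome and interferon lists apart from other genes.

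**Figure D5:**
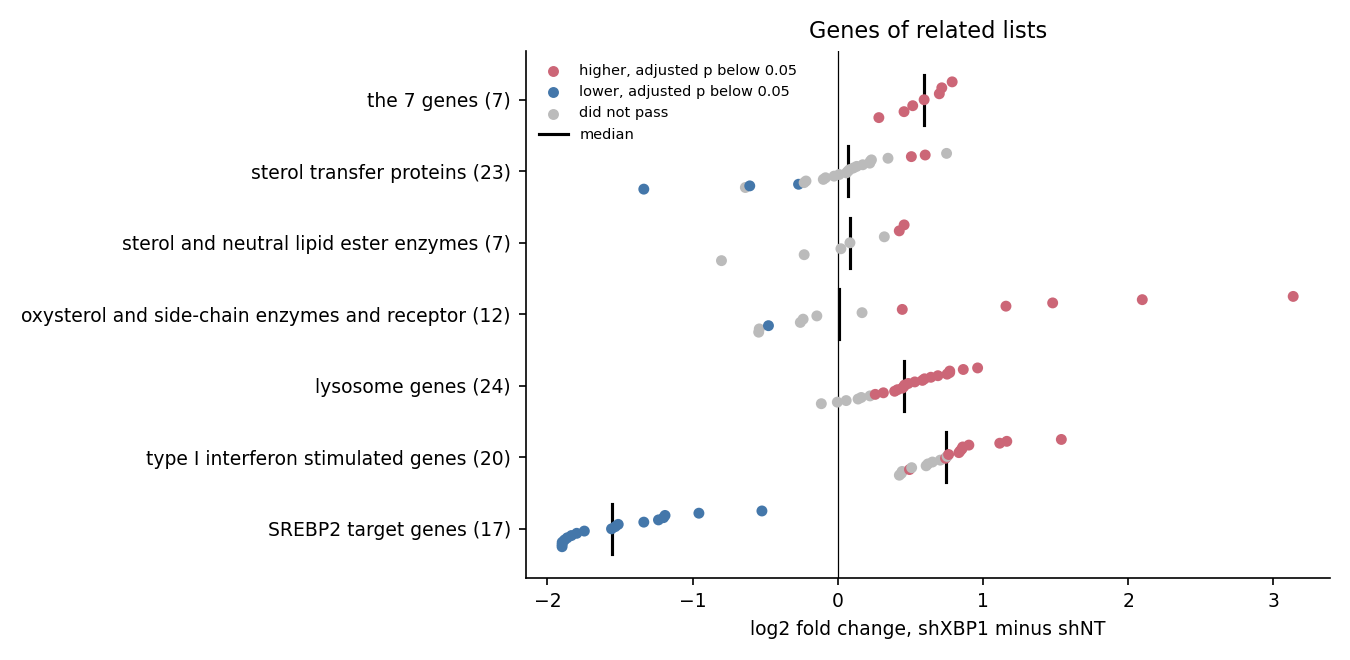
Log2 fold changes (shXBP1 minus shNT, horizontal axis) of the tested genes of 7 lists, 1 point per gene, red where higher, blue where lower and grey where the adjusted p of edgeR was not below 0.05, with the list's median as a black line and the number of tested genes in brackets. The 7 genes (median 0.59) and the lysosome genes (0.46) lie to the right of 0, the SREBP2 targets (-1.56) to the left, and the sterol transfer genes (0.07) on both sides.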

How the data were processed

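A single table of 8 tumors was used. The authors deposited raw counts, whole numbers without normalization, beside FPKM, which divides by library size and gene length, and a DESeq2 comparison, as the file headers name them. Per the submitters' processing notes the build is GRCm38. For aligner, counting tool, strand setting and annotation, no source used here gives a name.

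Genes were filtered with filterByExpr of edgeR (version 4.0.16, R 4.3.3), scaled by TMM (factors 0.980 to 1.04) and tested with its quasi-likelihood test over all 14907 genes (robust, two-sided, Benjamini-Hochberg, threshold 0.05). DESeq2 (1.42.0) and voom of limma (3.58.1) were alternatives. Log2 CPM used a prior count of 2. The procedure was tested on simulated data. Whether every tumor had a mouse of its own is not in the labels, so the p-values reflect the spread of these samples, which may be partly technical. No pair of tumors in a group was alike within sampling noise (chi-square over degrees of freedom at least 16.5). Counts limit precision most for Cyp27a1.

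The members and lists were chosen with earlier results of these data known. The text names the 7 genes, Xbp1, Ptprc, up to 4 genes of each pathway list with the smallest p and up to 2 called against its direction, and the 3 nearest profiles. Of the marker lists the rule also named the 2 tested genes with the highest mean CPM, and most of these are given within their list's count and sum. A symbol with several identifiers took the one with most counts. A gene of the lysosome list that the rule named is not reported here.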

Additional observations from a re-analysis of the deposited data

Results flagged for a closer look

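In 3 of the 148 groups of 4 tumors examined for the named genes and ratios, 1 tumor lay far from the other 3, and chance gives about 5% of groups. None of the 3 was 1 of the 7 genes. Psap, the precursor of sphingolipid activator proteins in the lysosome, was at 1907 CPM in shXBP1 tumor 1 and between 1479 and 1503 CPM in the other shXBP1 tumors. Sc5d, a sterol desaturase, was at 27.5 CPM in shXBP1 tumor 2 and between 36.1 and 37.1 CPM in the others. C1qb, a complement component of macrophages, was at 282 CPM in shXBP1 tumor 4 and between 522 and 561 CPM in the others. That tumor also had the lowest Lipa, Npc2, Soat1, Nceh1 and Ch25h of its group.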

How the results depend on the processing

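DESeq2, voom, RLE scaling, scaling by library totals alone and the fit without robust dispersion kept all 7 genes called and higher. Adding Ptprc ended every call, with log2 fold changes of 0.23 (Lipa), 0.44 (Npc1), -0.15 (Npc2), 0.080 (Soat1), -0.10 (Nceh1), -0.69 (Ch25h) and 0.89 (Cyp27a1), and 0 of 7 called. With the macrophage markers they were 0.25, 0.41, -0.25, 0.063, -0.071, -0.64 and 0.70, and again 0 were called. These fits called 134 and 46 genes higher and 106 and 69 lower, and their SE was larger. With no filter Ch25h kept 0.72 but lost its call. Cyp27a1 was below the filter of 10 CPM in 4 tumors and has no value there.

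No pairing by tumor number was seen: deviations of same-numbered tumors from their group means correlated at -0.07, -0.14, -0.02 and -0.06. The labels name no pairing, and so few values cannot exclude a weak effect shared by tumors of the same number. With the number as a replicate block the log2 fold changes were 0.59 (Lipa), 0.71 (Npc1), 0.45 (Npc2), 0.28 (Soat1, no longer called, edgeR adjusted p = 0.0518), 0.51 (Nceh1), 0.70 (Ch25h) and 0.79 (Cyp27a1), and 1304 genes were called lower, against 1958. Lipe and Osbp were not called with it (edgeR adjusted p = 0.0763 and 0.0807).

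Leaving out each tumor in turn gave 0.51 to 0.68 for Lipa, 0.63 to 0.75 for Npc1, 0.37 to 0.56 for Npc2, 0.25 to 0.33 for Soat1, 0.45 to 0.62 for Nceh1, 0.59 to 0.90 for Ch25h and 0.68 to 0.86 for Cyp27a1, with 3 to 7 of the 7 called higher, 3 being without shNT tumor 2. Between 2058 and 2904 genes were then called higher and 1303 (without shNT tumor 3) to 2401 lower. The log2 ratio of Ch25h to Cyp27a1 ran from -0.25 to 0.23, at 0.07 without shNT tumor 1 and 0.23 without shXBP1 tumor 4. The other ratios kept their sign, all 4 kept it with a prior count of 0.5 and on FPKM, and with 1 tumor left out their permutation tests could not pass.

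Of the sterol transfer genes 5 rose by DESeq2, 5 with library totals alone, 6 with the 10 CPM filter and 2 to 5 with a tumor left out, where 2 to 4 fell, and with the covariates 0 and 0 rose and 1 and 0 fell. Of the ester enzymes 1 rose with the 10 CPM filter, 1 with the block, 0 and 0 with the covariates and 0 to 2 with a tumor left out, and 1 fell by DESeq2 and 0 to 1 with a tumor left out. Of the oxysterol genes 1 rose with the 10 CPM filter, 0 and 0 with the covariates and 5 in every fit without 1 tumor, and 0 and 0 fell with the covariates and 1 to 2 with a tumor left out. Of the lysosome genes 0 and 0 rose with the covariates and 14 to 18 with a tumor left out, of the interferon genes 0 and 0, and 11 to 18. Of the SREBP2 targets 5 and 2 fell with the covariates and 16 to 17 with a tumor left out. For these changes the cause was not tested, beyond the fewer samples or genes and larger SE that each setting brings.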
